A study of Mus musculus with 24 samples.

Results

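The 36 genes described here are the T cell lineage and state genes: the chains of the T cell receptor and its CD3 complex, the coreceptors, costimulatory and adhesion receptors, the first signalling proteins behind the receptor, the transcription factors of T cell lineages and states, and 3 cytokine and chemokine receptors. They were listed by name and not by a cut-off on a measured value, but with earlier results of these data known. Each of the 36 symbols matched a single identifier among the 49315 genes of the count tables, and all 36 were among the 22280 genes that passed the filter on low counts. The study grew brain tumours in mice from CT-2A-dmEGFRvIII-Firefly Luciferase cells (CT-vIII), a mouse glioma line transduced with the mouse EGFR variant III and firefly luciferase, and sequenced polyA RNA from flash-frozen tumour tissue. All mice carried an osmotic pump for convection-enhanced delivery, which infuses a fluid slowly into the brain, from day 6 after implantation for 72 h. The pump held D2C7-IT (0.2 μg; an immunotoxin, that is, an antibody fragment joined to a bacterial toxin, directed at EGFR and its variant III), αCD40 (clone FGK4.5, between 10 and 300 μg; an antibody that stimulates CD40 on antigen-presenting cells; written aCD40 in the plots), both, or the vehicle control of 2% mouse serum albumin in buffer with 100 μg rat IgG2a. The labels do not give the αCD40 dose of each tumour. Tumours were taken when the pump was removed (day 0) or 3 days later (day 3), 3 tumours in each of the 8 groups. All groups share the line, the implanted hemisphere and the pump, and the labels name no mouse strain, age or sex. The replicates are labelled as separate tumours.

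A T cell recognises a peptide on an MHC molecule with the α and β chains of its receptor, which have no signalling part of their own and depend on the CD3 chains and the ζ chain. The kinase Lck, held by the coreceptor CD4 or CD8, phosphorylates those chains, Zap70 binds them and phosphorylates the scaffold Lat, and costimulation through CD28 or ICOS completes the signal. CD8 marks cytotoxic cells, CD4 helper cells, and the transcription factor Foxp3 defines regulatory T cells, which restrain the others. T cells are scarce in the healthy brain and enter gliomas in varying numbers. In bulk tissue, fewer T cells and less RNA per T cell cannot be told apart.

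The 24 libraries held 24697576 to 48119840 counts. Levels are given as CPM, counts scaled to a library of 1000000 counts with edgeR's TMM factors. Only the Egfr levels below are scaled by the library total alone, without those factors. There were 3 libraries that stood apart, and they touch the day 3 values of vehicle and αCD40: replicates 2 and 3 of vehicle day 3 and replicate 1 of αCD40 day 3 held Egfr, the gene of the receptor (reads of the transduced mouse variant can count toward it), above 100 CPM, against 12.9 to 49.6 CPM in the other 21 tumours. Their glioma and cell cycle genes had a mean level of 6.73 to 7.0 log2 CPM, those of the others 0.61 to 3.85 log2 CPM. Their 10 pan-neuronal genes lay at 6.89 to 7.66 against 8.38 to 9.26. These 3 libraries are called the high-Egfr tumours, and medians over lists of genes in comparisons that hold them are given with and without them. The remaining vehicle tumour of day 3, replicate 1, had the lowest Egfr of all 24.

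The CD3 and receptor chains were detected in all 24 tumours and were low. At day 0, Cd3e lay at 1.21, 0.298 and 0.176 CPM in the vehicle tumours, 0.32, 0.735 and 3.61 with αCD40, 1.46, 0.935 and 0.594 with D2C7-IT and 0.19, 1.97 and 0.476 with D2C7-IT + αCD40. At day 3, Cd3e lay at 0.624, 6.44 and 4.75 CPM in the vehicle tumours, 8.38, 4.2 and 2.35 with αCD40, 0.794, 0.941 and 0.987 with D2C7-IT and 2.46, 3.45 and 1.93 with D2C7-IT + αCD40. The tumours of a group differed widely, from 0.19 to 1.97 CPM in D2C7-IT + αCD40 at day 0, but at day 3 the 3 D2C7-IT tumours lay below the 3 D2C7-IT + αCD40 tumours without overlap. Trac encodes the constant part of the receptor α chain. At day 0, Trac lay at 2.18, 0.895 and 0.794 CPM in the vehicle tumours, 0.48, 2.05 and 3.54 with αCD40, 2.23, 1.58 and 0.875 with D2C7-IT and 0.597, 1.99 and 1.54 with D2C7-IT + αCD40. At day 3, Trac lay at 1.09, 10.9 and 6.12 CPM in the vehicle tumours, 9.86, 5.3 and 4.3 with αCD40, 1.67, 0.975 and 1.67 with D2C7-IT and 3.72, 4.44 and 3.35 with D2C7-IT + αCD40. As in Cd3e, the D2C7-IT and low-Egfr vehicle tumours of day 3 lay below all αCD40 and D2C7-IT + αCD40 tumours of that day. In both genes the high-Egfr vehicle tumours lay above all D2C7-IT + αCD40 tumours of that day. Cd3d (0.0271 to 7.47 CPM over the 24), Cd3g (0.19 to 11.8), the ζ chain gene Cd247 (0.132 to 5.37) and the β chain constant gene Trbc1 (0.0271 to 9.49) had their highest value in the αCD40 day 3 tumour of high Egfr. Trbc2, the other β constant gene, lay at 1.0 to 13.3 CPM and was highest in a D2C7-IT day 0 tumour. Trbc1 and Trbc2 are near-identical copies, so how reads were shared between them is uncertain. Per kb of exon, the mean over all tumours was 9.66 CPM for Trbc2, 3.21 for Trac, 2.51 for Trbc1, 0.908 for Cd3d, 0.765 for Cd3g, 0.503 for Cd3e and 0.293 for Cd247.

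**Figure D1:**
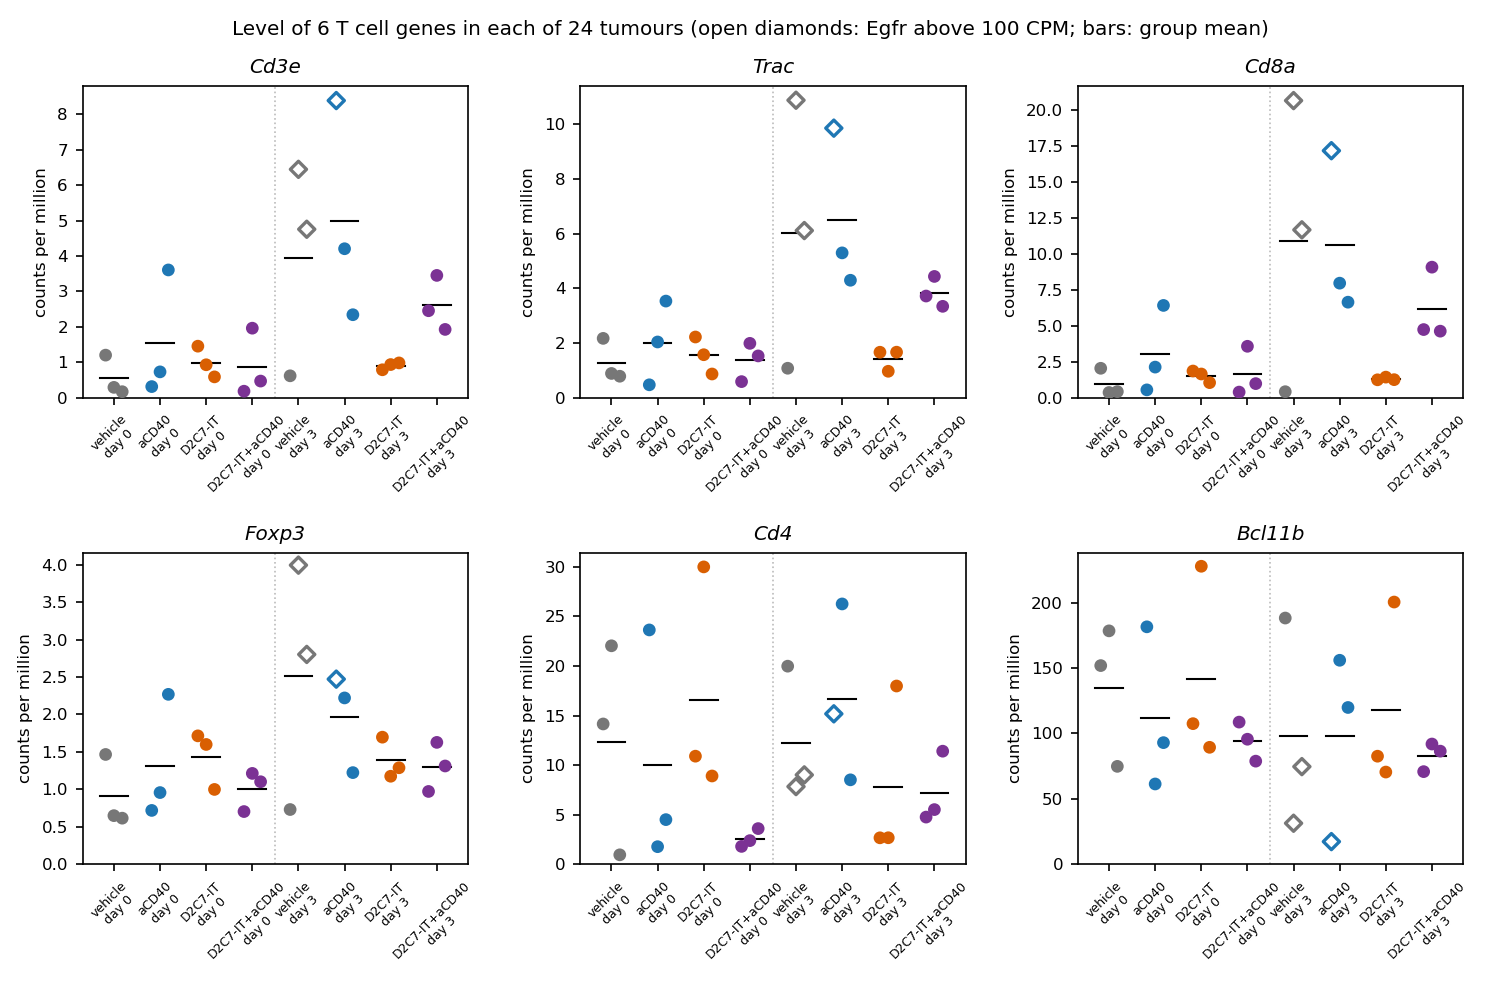
CPM of Cd3e, Trac, Cd8a, Foxp3, Cd4 and Bcl11b (one panel each) in every tumour, by group; bars are group means and open diamonds are the 3 high-Egfr tumours. Cd3e, Trac and Cd8a are high in the open diamonds and low in all 3 D2C7-IT day 3 tumours, while Cd4 and Bcl11b are spread widely within most groups.

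The 3 CD3 genes are neighbours on chromosome 9 (GRCm38: Cd3g chr9:44969572-44980431, Cd3d chr9:44981786-44987339, Cd3e chr9:44998740-45009627) and their levels moved together across the tumours, so their promoters are shown. The Cd3g and Cd3d start sites lie 1355 bases apart and point away from each other. The sequences cover 250 bases before to 50 after each start site, are written 5′ to 3′ on the strand of the gene, and come from RefSeq (GRCm38.p6): chr9:44980382-44980681 on the minus strand, chr9:44981536-44981835 on the plus strand and chr9:45009562-45009861 on the minus strand. The promoter of Bcl11b, chr12:108003365-108003664 on the minus strand, is set beside them as that of a member that did not follow the CD3 genes. Capitals mark CAGGTG or CACCTG, the same E-box read on either strand; E-boxes are the motifs of E proteins such as E2A and HEB, which act in T cell development.
Cd3g: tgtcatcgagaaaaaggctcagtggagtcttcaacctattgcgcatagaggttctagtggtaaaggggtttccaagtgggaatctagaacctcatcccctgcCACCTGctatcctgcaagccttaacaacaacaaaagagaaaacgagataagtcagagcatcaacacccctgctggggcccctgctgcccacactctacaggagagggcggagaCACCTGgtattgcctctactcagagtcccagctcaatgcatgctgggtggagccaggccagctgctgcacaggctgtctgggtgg
Cd3d: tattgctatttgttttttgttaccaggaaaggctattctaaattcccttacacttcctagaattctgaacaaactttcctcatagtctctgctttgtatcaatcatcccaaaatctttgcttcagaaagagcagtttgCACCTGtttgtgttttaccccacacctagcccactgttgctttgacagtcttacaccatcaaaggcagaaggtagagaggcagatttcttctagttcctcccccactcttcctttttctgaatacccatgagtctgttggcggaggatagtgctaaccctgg
Cd3e: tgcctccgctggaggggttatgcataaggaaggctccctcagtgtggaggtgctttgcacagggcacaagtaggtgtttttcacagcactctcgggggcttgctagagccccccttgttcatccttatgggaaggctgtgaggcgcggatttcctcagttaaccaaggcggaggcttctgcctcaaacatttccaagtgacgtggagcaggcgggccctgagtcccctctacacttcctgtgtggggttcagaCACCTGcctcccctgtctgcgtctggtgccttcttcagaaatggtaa
Bcl11b: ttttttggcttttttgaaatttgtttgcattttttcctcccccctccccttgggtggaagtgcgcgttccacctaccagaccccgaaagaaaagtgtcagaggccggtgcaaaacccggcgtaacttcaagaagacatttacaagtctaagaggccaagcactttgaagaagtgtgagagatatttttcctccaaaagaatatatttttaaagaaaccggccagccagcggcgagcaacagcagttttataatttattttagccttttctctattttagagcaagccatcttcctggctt
The E-box occurred 2 times in the Cd3g window (first bases at -148 and -35 from the start site), 1 time in that of Cd3d (at -112) and 1 time in that of Cd3e (at 3). It was not in the Bcl11b window, nor in those of Cxcr6 and Foxp3, which did follow the CD3 genes. Whether the motif goes with following the CD3 genes was not tested. The promoter table held 22 of the 36 members, and 8 of the 22 (36.4%) had the E-box on either strand, against 20.03% of the first promoters of 27025 genes. Of the other 9 motifs searched on both strands, GGAAGT (ETS) was in 9 of 22 members (40.9%; 24.1% of genes), AGGAAG in 11 (35.1% of genes) and CACTTCC, which overlaps GGAAGT, in 5 (11.2%). TGTGGT (RUNX) was in 4 members (16.9% of genes), its longer form TGTGGTT in 2 (5.37%), CTTTGA (TCF/LEF) in 6 (16.2%) and its longer form CTTTGAT in 1 (3.72%). TATAAA was in 2 (14.2% of genes) and TGACTCA (AP-1) in 0 (5.17% of genes). These matches describe the letters only, and the printed motif was chosen after the search.

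The coreceptor genes all lie on chromosome 6 (GRCm38: Cd8b1 chr6:71322788-71337494, Cd8a chr6:71373427-71379173, Cd4 chr6:124864692-124888221). The CD8 chains followed the CD3 genes more closely than Cd4 did. At day 0, Cd8a lay at 2.06, 0.38 and 0.441 CPM in the vehicle tumours, 0.56, 2.14 and 6.42 with αCD40, 1.87, 1.66 and 1.06 with D2C7-IT and 0.407, 3.59 and 0.995 with D2C7-IT + αCD40. At day 3, Cd8a lay at 0.434, 20.6 and 11.7 CPM in the vehicle tumours, 17.2, 7.97 and 6.65 with αCD40, 1.26, 1.45 and 1.27 with D2C7-IT and 4.75, 9.08 and 4.63 with D2C7-IT + αCD40. The 3 D2C7-IT tumours of day 3 and the low-Egfr vehicle tumour held less Cd8a than any αCD40 or D2C7-IT + αCD40 tumour of that day, and the αCD40 tumours of day 3 did not overlap those of day 0. The high-Egfr vehicle tumours held more Cd8a than any D2C7-IT + αCD40 tumour of day 3. Cd8b1, the second CD8 chain, ranged from 0.109 to 8.44 CPM and was lowest in the D2C7-IT + αCD40 day 0 tumour (replicate 1) that was also lowest in Cd3d. At day 0, Cd4 lay at 14.1, 22 and 0.97 CPM in the vehicle tumours, 23.6, 1.79 and 4.51 with αCD40, 10.9, 29.97 and 8.91 with D2C7-IT and 1.82, 2.4 and 3.61 with D2C7-IT + αCD40. At day 3, Cd4 lay at 19.97, 7.84 and 9.02 CPM in the vehicle tumours, 15.2, 26.2 and 8.52 with αCD40, 2.68, 2.69 and 18 with D2C7-IT and 4.77, 5.53 and 11.4 with D2C7-IT + αCD40. Cd4 varied widely among tumours of 1 group, as from 0.97 to 22 CPM in vehicle at day 0, and a high Cd4 did not always go with a high Cd3e: the vehicle day 0 tumour with 22 CPM Cd4 held 0.298 CPM Cd3e.

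The costimulatory and adhesion receptors were Cd2, Cd5, Cd6, Cd28, Icos and Cd27. At day 0, Icos lay at 1.92, 0.434 and 0.573 CPM in the vehicle tumours, 0.427, 0.767 and 2.63 with αCD40, 0.87, 1.21 and 0.594 with D2C7-IT and 0.217, 0.925 and 0.303 with D2C7-IT + αCD40. At day 3, Icos lay at 0.19, 8.57 and 5.88 CPM in the vehicle tumours, 9.55, 3.44 and 2.35 with αCD40, 0.849, 0.571 and 1.05 with D2C7-IT and 0.779, 2.29 and 0.747 with D2C7-IT + αCD40. ICOS is a CD28 relative that activated T cells display. Icos was highest in the 3 high-Egfr tumours, and its D2C7-IT + αCD40 values of day 3 overlapped those of D2C7-IT, unlike Cd3e and Cd8a. Cd2, an adhesion receptor, and Cd5, a brake on receptor signalling, ranged from 0.0271 to 13.9 and from 0.217 to 5.7 CPM. In both, the D2C7-IT and D2C7-IT + αCD40 tumours of day 3 did not overlap. Cd28, the main costimulatory receptor, lay at 1.83, 1.28 and 0.947 CPM with D2C7-IT at day 3 and 2.09, 2.02 and 1.44 with D2C7-IT + αCD40, so that these groups overlapped. Its D2C7-IT + αCD40 tumours of day 0 lay at 0.353, 0.52 and 0.151 CPM, all below those of day 3. Cd27, a TNF receptor relative, stayed between 0.244 and 4.2 CPM, with its 3 highest values in the high-Egfr tumours. Cd6, a relative of Cd5, ranged from 0.519 to 11.7 CPM, with its highest value in the αCD40 day 3 tumour of high Egfr.

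Of the 9 proximal signalling genes, Lck, the kinase held by the coreceptors, was high in the high-Egfr tumours. At day 0, Lck lay at 3.81, 2.55 and 1.15 CPM in the vehicle tumours, 2.11, 2.59 and 6.97 with αCD40, 4.79, 4.57 and 2.34 with D2C7-IT and 2.36, 4.39 and 4.09 with D2C7-IT + αCD40. At day 3, Lck lay at 2.69, 17 and 11.5 CPM in the vehicle tumours, 20.9, 11 and 8.21 with αCD40, 2.27, 2.55 and 3.95 with D2C7-IT and 6.81, 8.16 and 5.95 with D2C7-IT + αCD40. At day 3 the αCD40 and D2C7-IT + αCD40 tumours all lay above the D2C7-IT and low-Egfr vehicle tumours. The high-Egfr vehicle tumours lay above all D2C7-IT + αCD40 tumours of that day. Zap70, the kinase that binds the phosphorylated chains, had a narrower range of 1.75 to 10.3 CPM, and Skap1, an adaptor of integrin activation, of 0.958 to 4.55 CPM. The scaffold Lat ranged from 0.529 to 9.18 CPM. Ptprcap, which binds the phosphatase CD45, ranged from 0.562 to 24.4 CPM, with its top value in the αCD40 day 3 tumour of high Egfr. The adaptor Sh2d2a ranged from 0.136 to 15 CPM. Themis, needed for thymocyte selection, Ubash3a, a damper of receptor signals, and Sh2d1a, the adaptor SAP, had highest values of 4.57, 2.56 and 0.98 CPM, and Ubash3a and Sh2d1a each had 1 tumour with 0 counts. Sh2d1a had at most 42 counts in a tumour, the fewest of the 36. Exons of Sh2d1a share up to 1465 bases with Tenm1 on the other strand. Those of Ptprcap share up to 829 with Rps6kb2 on the other strand and 432 with Coro1b on the same strand. These overlaps can affect the counts of both members.

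The transcription factors differed in how closely they followed the CD3 genes. Over the 21 tumours of lower Egfr, Spearman's rho with them was 0.89 for Tbx21, 0.79 for Gata3, 0.76 for Foxp3, 0.62 for Eomes, 0.50 for Lef1, 0.25 for Tcf7, -0.02 for Bcl11b and -0.41 for Tox. Tcf7 had r = 0.63 over all 24 tumours and 0.29 over the 21. Tbx21 encodes T-bet, the factor of type 1 helper and cytotoxic programmes, which NK cells also use. At day 0, Tbx21 lay at 0.544, 0.163 and 0.176 CPM in the vehicle tumours, 0.427, 0.447 and 1.32 with αCD40, 0.768, 0.644 and 0.469 with D2C7-IT and 0.244, 0.752 and 0.303 with D2C7-IT + αCD40. At day 3, Tbx21 lay at 0.244, 3.59 and 2.36 CPM in the vehicle tumours, 7.93, 1.81 and 1.09 with αCD40, 0.821, 0.874 and 0.604 with D2C7-IT and 1.14, 3.03 and 1.47 with D2C7-IT + αCD40. Its 3 D2C7-IT + αCD40 tumours of day 3 lay above all 3 D2C7-IT tumours of day 3 and all 3 D2C7-IT + αCD40 tumours of day 0. At day 0, Foxp3 lay at 1.47, 0.651 and 0.617 CPM in the vehicle tumours, 0.721, 0.959 and 2.27 with αCD40, 1.72, 1.6 and 1.0 with D2C7-IT and 0.705, 1.21 and 1.1 with D2C7-IT + αCD40. At day 3, Foxp3 lay at 0.733, 3.99 and 2.8 CPM in the vehicle tumours, 2.47, 2.22 and 1.22 with αCD40, 1.7, 1.18 and 1.29 with D2C7-IT and 0.974, 1.63 and 1.31 with D2C7-IT + αCD40. Foxp3 varied less than Cd3e: its D2C7-IT and D2C7-IT + αCD40 tumours of day 3 overlapped. Exons of Foxp3 share bases with Ccdc22 and Ppp1r3f on the other strand, and the library kit does not mark strand, so that part of its count can come from them. Gata3, the factor of type 2 helper cells, held 0, 0.101 and 0.242 CPM with D2C7-IT and 0.852, 0.765 and 1.21 with D2C7-IT + αCD40 at day 3, without overlap, and 3 of the 24 tumours had no Gata3 count. Exons of Gata3 share up to 77 bases with the protein-coding gene 9230102O04Rik. Eomes, a factor of effector and memory cells, was highest in 2 day 0 tumours, replicate 3 of D2C7-IT + αCD40 (4.84 CPM) and replicate 3 of αCD40 (4.11).

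At day 0, Tcf7 lay at 8.19, 8.11 and 3.75 CPM in the vehicle tumours, 9.1, 4.79 and 7.15 with αCD40, 8.09, 12.1 and 5.1 with D2C7-IT and 3.77, 6.13 and 5.39 with D2C7-IT + αCD40. At day 3, Tcf7 lay at 7.87, 26.8 and 27.3 CPM in the vehicle tumours, 26.4, 9.06 and 7.51 with αCD40, 6.32, 5.75 and 9.69 with D2C7-IT and 4.19, 7.2 and 5.85 with D2C7-IT + αCD40. Tcf7 encodes TCF1, a factor of naive and stem-like T cells. The 3 high-Egfr tumours, at 26.4 to 27.3 CPM, stood above all others, and the low-Egfr vehicle and αCD40 tumours of day 3 lay within the day 0 range. At day 0, Bcl11b lay at 152, 178 and 74.9 CPM in the vehicle tumours, 181, 61.5 and 93 with αCD40, 108, 228 and 89.4 with D2C7-IT and 109, 95.6 and 78.9 with D2C7-IT + αCD40. At day 3, Bcl11b lay at 188, 31.5 and 74.7 CPM in the vehicle tumours, 17.4, 156 and 119.9 with αCD40, 82.7, 70.6 and 200.4 with D2C7-IT and 70.9, 92 and 86.5 with D2C7-IT + αCD40. Bcl11b, which commits thymocytes to the T lineage and is also a factor of striatal and deep cortical neurons, was the most abundant member per kb of exon (13.6 CPM per kb). Its lowest values were in 2 of the 3 high-Egfr tumours, where the CD3 genes were highest. Lef1, the relative of Tcf7, ranged from 3.47 to 13.6 CPM and lay at 7.03, 9.62 and 13.6 CPM with D2C7-IT + αCD40 at day 3 against 4.52, 5.51 and 3.53 with D2C7-IT, without overlap. Lef1 is also made by endothelial cells of the brain. Tox, a factor of exhausted T cells that neurons also express, ranged from 5.34 to 36.7 CPM with its 3 lowest values in the high-Egfr tumours.

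Of the 3 receptors of cytokines and chemokines, Cxcr6 marks T cells resident in tissue. At day 0, Cxcr6 lay at 1.32, 0.814 and 0.176 CPM in the vehicle tumours, 0.214, 0.895 and 3.27 with αCD40, 1.18, 1.23 and 0.563 with D2C7-IT and 0.244, 1.76 and 0.411 with D2C7-IT + αCD40. At day 3, Cxcr6 lay at 0.461, 5.28 and 3.73 CPM in the vehicle tumours, 9.49, 3.91 and 4.38 with αCD40, 0.602, 0.605 and 1.87 with D2C7-IT and 2.04, 4.59 and 1.75 with D2C7-IT + αCD40. All 3 αCD40 tumours of day 3 lay above those of day 0, 3.91 CPM being the lowest of day 3 and 3.27 CPM the highest of day 0. Il2ra, the high-affinity IL-2 receptor chain of activated and regulatory T cells, lay at 0.271, 11.4 and 7.63 CPM in the vehicle tumours of day 3, 8.78, 2.31 and 1.43 with αCD40, 1.07, 0.706 and 0.725 with D2C7-IT and 1.22, 1.43 and 1.57 with D2C7-IT + αCD40. Its 3 highest values were those of the high-Egfr tumours. Il7r, the IL-7 receptor of naive and memory cells, ranged from 0.542 to 9.46 CPM and its D2C7-IT (2.93, 2.76 and 3.45) and D2C7-IT + αCD40 (1.92, 3.87 and 1.83) tumours of day 3 overlapped.

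**Figure D2:**
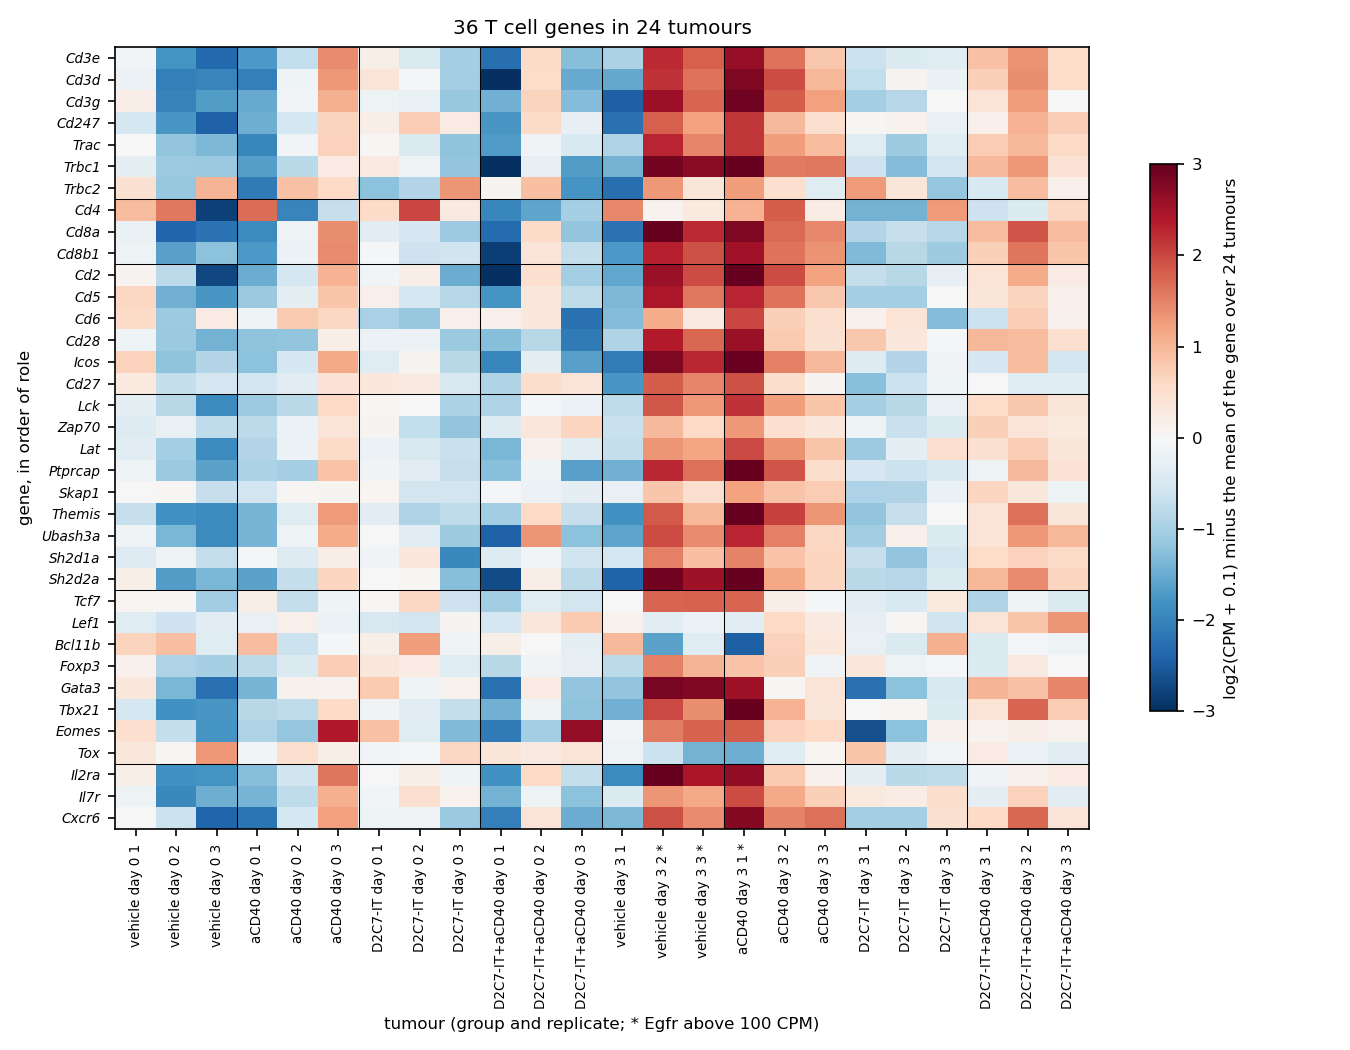
Each row is 1 of the 36 genes in order of role and each column 1 of the 24 tumours; colour is log2(CPM + 0.1) minus the mean of that gene, and stars mark the 3 high-Egfr tumours. Most rows share 1 pattern, red in the starred columns and in the other αCD40 day 3 tumours, while the rows of Trbc2, Cd4, Cd6, Tcf7, Bcl11b, Lef1 and Tox differ from it.

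No member passed an adjusted p of 0.05 in edgeR's quasi-likelihood test in any of the 19 comparisons, with Benjamini-Hochberg adjustment over the 22280 genes. Few other genes did: the share of all genes called was 0.0808% for D2C7-IT against vehicle at day 0, 0.0404% for D2C7-IT + αCD40 against vehicle at day 3, 0.0583% for αCD40 at day 3 against day 0, 0.00449% for D2C7-IT at day 3 against day 0, and 0% in the other 15. The counts of members at an unadjusted p under 0.05 are therefore set beside the share of all genes below it. DESeq2, run beside edgeR, called members in 3 comparisons that hold the vehicle tumours of day 3 and in no other, where it called 0% to 0.887% of all genes.

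The first question was how T cell genes stood 3 days after the pump was removed against its end, within each treatment. In the vehicle tumours 33 of 36 members were higher at day 3, with a median log2 fold change of 2.15 (all genes 0.01). Cd8a lay at 0.96 ± 0.952 CPM (SD, n = 3) at day 0 and 10.9 ± 10.1 at day 3, a log2 fold change of 3.48 (SE 1.08, adjusted p = 0.108) by edgeR. Lck had 2.04 (SE 0.60, adjusted p = 0.108), Cd28 2.55 (SE 0.77, adjusted p = 0.108) and Trbc1 3.22 (SE 0.97, adjusted p = 0.108) by the same edgeR test. At an unadjusted p under 0.05 there were 27 members (75.0%), 26 higher and 1, Tox, lower, against 30.2% of all genes; DESeq2 called 19 members, 18 of them higher, and 10.7% of all genes. This difference rests on the 2 high-Egfr vehicle tumours: without the 3 high-Egfr libraries, when 1 vehicle tumour is left at day 3 and is taken to vary like the other groups, the median was -0.75, and Cd8a had -1.19, Trbc1 -0.85, Cd28 -0.18 and Lck 0.08. Leaving out the low-Egfr vehicle tumour, replicate 1 of day 3, instead gave 30 members called (83.3%) and 41.1% of all genes.

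In the αCD40 tumours 34 of 36 members were higher at day 3, with a median log2 fold change of 1.62 and 1.03 without the high-Egfr tumour. Skap1 had 1.11 (SE 0.33, adjusted p = 0.424), Ptprcap 2.65 (SE 0.84, adjusted p = 0.424), Trbc1 3.0 (SE 0.96, adjusted p = 0.424) and Cd28 2.33 (SE 0.76, adjusted p = 0.424) by edgeR. There were 14 members (38.9%) at an unadjusted p under 0.05, all higher, against 11.6% of all genes. In 13 members, Cd8a, Lck, Trac and Cxcr6 among them, the 3 day 3 tumours lay above the 3 day 0 tumours without overlap, as did 5.05% of all genes.

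In the D2C7-IT + αCD40 tumours 32 of 36 members were higher at day 3, with a median of 1.06 and 1.09 without the high-Egfr libraries, none of which is in these groups. Cd28 lay at 0.342 ± 0.185 CPM (SD, n = 3) at day 0 and 1.85 ± 0.357 at day 3, a log2 fold change of 2.44 (SE 0.78, adjusted p = 0.664) by edgeR. Trbc1 had 2.46 (SE 0.96, adjusted p = 0.94) and Tbx21 2.12 (SE 0.84, adjusted p = 0.94) by edgeR. These were the 3 members (8.33%) at an unadjusted p under 0.05, against 4.66% of all genes. In 13 members, with Cd8a, Trac, Lck, Gata3 and Cd4 among them, the groups did not overlap and day 3 was higher, as in 7.07% of all genes. In 1, Tox, day 3 was lower without overlap, as in 6.49% of all genes. Summed markers of other cells were also higher without overlap: NK cell genes lay between 1.44 and 7.78 CPM at day 0 and between 9.93 and 13.8 at day 3. B cell genes lay between 2.25 and 7.58, then 7.85 and 17.2 CPM, and dendritic cell genes between 45.4 and 50.3, then 60.2 and 73.97 CPM. Their part in the result was not tested.

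In the D2C7-IT tumours most members overlapped their day 0 levels. Without overlap, Cd247, Cd8b1, Gata3 and Il2ra were lower at day 3 and Cd28 was higher. The share of all genes without overlap was not counted for this comparison. Of 36 members 12 were higher at day 3, the median was -0.17, and 0 members had an unadjusted p under 0.05, against 3.51% of all genes. Cd3e lay at 0.996 ± 0.436 CPM (SD, n = 3) at day 0 and 0.907 ± 0.101 at day 3, and Cd8a at 1.53 ± 0.419 and 1.32 ± 0.105. The gene that edgeR called in this comparison was no member but is listed among effector and exhaustion genes: Lag3, an inhibitory receptor of T cells that brain cells can also express. Lag3 lay at 11.9, 12 and 13.5 CPM in the D2C7-IT tumours of day 0 and at 42.3, 40.4 and 38.3 CPM in those of day 3, a log2 fold change of 1.69 (SE 0.20, adjusted p = 0.00245 by edgeR). Without D2C7-IT day 0 replicate 1 or replicate 2 its adjusted p was 0.0532 or 0.0576 by edgeR. The αCD40 tumours of day 3 held Lag3 at 27.6, 49.6 and 29.8 CPM, overlapping the D2C7-IT tumours, and Cd3e at 8.38, 4.2 and 2.35 CPM, which did not overlap them.

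**Figure D3:**
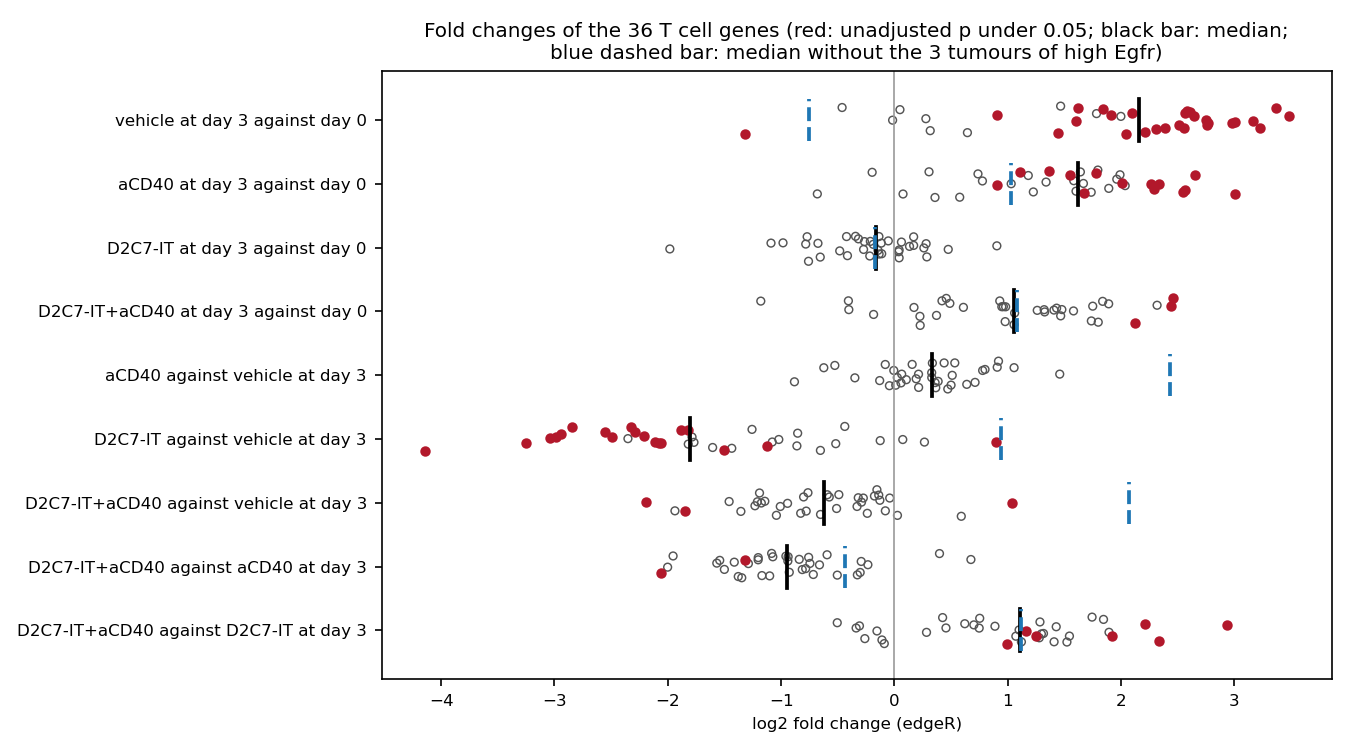
Log2 fold changes of the 36 members in 9 comparisons by edgeR, 1 point a gene; red points have an unadjusted p under 0.05, black bars are medians and blue dashed bars the medians without the 3 high-Egfr tumours. The blue and black bars lie on opposite sides of 0 in vehicle at day 3 against day 0 and in D2C7-IT and D2C7-IT + αCD40 against vehicle at day 3, and together, at 1.12 and 1.11, in D2C7-IT + αCD40 against D2C7-IT.

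The second question was how each treatment stood against vehicle. At day 3 D2C7-IT tumours had 33 of 36 members below vehicle, with a median of -1.8. Trbc1 had -3.25 (SE 0.97, adjusted p = 0.0804), Skap1 -1.12 (SE 0.34, adjusted p = 0.0804), Gata3 -4.14 (SE 1.33, adjusted p = 0.0851) and Sh2d1a -2.21 (SE 0.72, adjusted p = 0.0851) by edgeR. At an unadjusted p under 0.05 there were 19 members (52.8%), 18 lower and 1, Tox, higher, against 28.2% of all genes; DESeq2 called 13 members, all lower, and 11.4% of all genes. With the 3 high-Egfr tumours left out, which leaves 1 vehicle tumour of day 3, the median was 0.94; Trbc1 then had 0.82, Gata3 0.17, Skap1 -0.41 and Sh2d1a -0.35. Without vehicle day 3 replicate 1 edgeR called 25 members (69.4%) and 35.7% of all genes.

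With D2C7-IT + αCD40 at day 3, 33 of 36 members lay below vehicle, with a median of -0.62. Tcf7 had -1.84 (SE 0.52, adjusted p = 0.109), Lef1 1.03 (SE 0.33, adjusted p = 0.109) and Il2ra -2.19 (SE 1.02, adjusted p = 0.198) by edgeR, and these were the 3 members (8.33%) at an unadjusted p under 0.05, against 24% of all genes. DESeq2 called Tcf7 and Lef1, and 6.95% of all genes. Without the high-Egfr tumours the median was 2.07 and 13 members (36.1%) had an unadjusted p under 0.05, against 6.97% of all genes in that fit; Il2ra then had 2.39, Tcf7 -0.42 and Lef1 0.84. Without vehicle day 3 replicate 1 edgeR called 6 members (16.7%) and 30.1% of all genes. For αCD40 at day 3, 28 of 36 members were above vehicle with a median of 0.33, and 0 had an unadjusted p under 0.05 (1.91% of all genes). Without the high-Egfr tumours that median was 2.43, with 17 members (47.2%) at an unadjusted p under 0.05, against 2.58% of all genes in that fit, and 0 at an adjusted one. Those fits hold 1 vehicle tumour at day 3.

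At day 0, when no high-Egfr tumour was present, the members' medians against vehicle lay between 0.14 and 0.58. With αCD40, 32 of 36 members were higher, the median was 0.58, and 0 had an unadjusted p under 0.05 (1.36% of all genes); replicate 3 of αCD40 carried the group's highest value in Cd3e, Cd8a, Icos, Lck and Cxcr6. With D2C7-IT, 30 members were higher, the median was 0.43, and 1 member (2.78%) had an unadjusted p under 0.05 (4.52% of all genes). It was Cd247, at 1.33, 2.02 and 1.38 CPM against 0.757, 0.271 and 0.132, with a log2 fold change of 1.97 (SE 0.88, adjusted p = 1.0) by edgeR. Exons of Cd247 share up to 2136 bases with Pou2f1 on the other strand. With D2C7-IT + αCD40, 24 members were higher, the median was 0.14, and 2 members had an unadjusted p under 0.05 (3.03% of all genes): Lef1 with 0.74 (SE 0.32, adjusted p = 1.0) and Cd4 with -2.25 (SE 1.01, adjusted p = 1.0) by edgeR.

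The third question was whether the combination differed from each agent alone. The comparison of D2C7-IT + αCD40 with D2C7-IT at day 3 holds none of the high-Egfr libraries. The combination was higher in 29 of 36 members, with a median log2 fold change of 1.11 (all genes -0.01). In 21 of the 36 (58.3%) the 3 combination tumours lay above the 3 D2C7-IT tumours without overlap, as in 6.27% of all genes. They were 5 of the 7 receptor chain genes (Cd3e, Cd3d, Cd247, Trac and Trbc1), both CD8 chains, Cd2, Cd5, 8 of the 9 signalling genes (not Lat), Lef1, Gata3, Tbx21 and Il2ra. Cd8a lay at 1.32 ± 0.105 CPM (SD, n = 3) with D2C7-IT and 6.15 ± 2.53 with the combination. By edgeR, Lef1 had 1.16 (SE 0.33, adjusted p = 1.0), Skap1 0.99 (SE 0.34, adjusted p = 1.0), Sh2d1a 1.92 (SE 0.72, adjusted p = 1.0) and Cd8b1 2.33 (SE 0.95, adjusted p = 1.0). Cd8a, Lck and Gata3 were the other members among the 7 (19.4%) at an unadjusted p under 0.05, all higher, against 2.44% of all genes. The median stayed between 0.90 and 1.31 when any 1 of the 6 tumours was left out and was 1.12 without the 3 high-Egfr libraries. The other 15 members, whose groups overlapped, were Foxp3, Icos, Cd27, Il7r, Cd28, Cd6, Trbc2, Cd4, Tcf7, Bcl11b, Eomes, Tox, Cxcr6, Lat and Cd3g.

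Against αCD40 at day 3, the combination was lower in 34 of 36 members, with a median of -0.95 and -0.44 without the high-Egfr αCD40 tumour. Tcf7 had -1.32 (SE 0.51, adjusted p = 0.423) and Ptprcap -2.06 (SE 0.82, adjusted p = 0.423) by edgeR, the 2 members (5.56%) at an unadjusted p under 0.05, against 11.1% of all genes; without the high-Egfr libraries they had -0.52 and -0.88. In 11 members (30.6%) the combination tumours lay below the αCD40 tumours without overlap, as in 4.78% of all genes, and in 0 above. At day 0 the combination against αCD40 had a median of -0.57 and 0 members at an unadjusted p under 0.05 (0.884% of all genes). Against D2C7-IT at day 0 its median was -0.19, and 1 member, Cd4, had an unadjusted p under 0.05 (2.77% of all genes) with -2.67 (SE 1.03, adjusted p = 1.0) by edgeR.

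Departure from additivity, the combination minus the sum of the single agents, had a median over the members of -1.0 at day 0, with 1 member, Il7r, at an unadjusted p under 0.05 with a value of -2.13 (SE 0.91, adjusted p = 1.0) by edgeR, against 1.62% of all genes. At day 3 the median was 0.55 and the 1 member was Gata3 with 3.82 (SE 1.71, adjusted p = 1.0) by edgeR (1.13% of all genes); without the high-Egfr libraries that median was -1.4. The change in each treatment's difference from vehicle between day 0 and day 3 had medians of -0.34 for αCD40 with 0 members at an unadjusted p under 0.05 (1.22% of all genes), -2.4 for D2C7-IT with 16 (44.4%; 17.6% of all genes) and -0.95 for the combination with 0 (8.05% of all genes). For D2C7-IT the members of smallest p were Gata3 with -5.35 (SE 1.8, adjusted p = 0.276), Lck with -2.46 (SE 0.83, adjusted p = 0.276), Trbc1 with -3.88 (SE 1.33, adjusted p = 0.276) and Il2ra with -3.84 (SE 1.45, adjusted p = 0.276) by edgeR. Without the high-Egfr tumours these 3 medians were 1.53, 0.50 and 2.03. All of them share the vehicle tumours of day 3. Without vehicle day 3 replicate 1 edgeR called 14 members (38.9%) in the D2C7-IT contrast and 16.1% of all genes.

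Ratios of counts within a tumour do not depend on its depth. Cd8a to Foxp3 was 1.4, 0.583 and 0.714 in the vehicle tumours of day 0, 0.778, 2.23 and 2.83 with αCD40, 1.09, 1.04 and 1.06 with D2C7-IT and 0.577, 2.95 and 0.902 with the combination. At day 3 it was 0.593, 5.17 and 4.17 in vehicle, 6.94, 3.59 and 5.43 with αCD40, 0.742, 1.23 and 0.984 with D2C7-IT and 4.88, 5.58 and 3.53 with the combination. The αCD40 and combination tumours of day 3, with high or low Egfr, thus lay above all D2C7-IT tumours and the low-Egfr vehicle tumour. The high-Egfr vehicle tumours, at 5.17 and 4.17, lay within the range of the αCD40 and combination tumours. Foxp3 to Cd3e ran the other way, at 2.14, 1.25 and 1.31 with D2C7-IT and 0.396, 0.471 and 0.68 with the combination at day 3. With αCD40 it was 0.295, 0.528 and 0.522 on that day, and in the low-Egfr vehicle tumour 1.17. The high-Egfr vehicle tumours, at 0.62 and 0.589, lay within the range of the combination. Icos to Cd3e was 1.07, 0.607 and 1.06 with D2C7-IT and 0.317, 0.664 and 0.387 with the combination at day 3, and these overlapped. These ratios were chosen after the values of the members were seen, and no test is given. Part of the Foxp3 count can come from Ccdc22 and Ppp1r3f, as said above. In the tumours of fewest Cd3e counts Foxp3 exceeded Cd3e. Foxp3 had 14 counts against 4 in vehicle day 0 replicate 3, and 26 against 7 in D2C7-IT + αCD40 day 0 replicate 1. How far this shaped the ratios with Foxp3 was not tested.

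**Figure D4:**
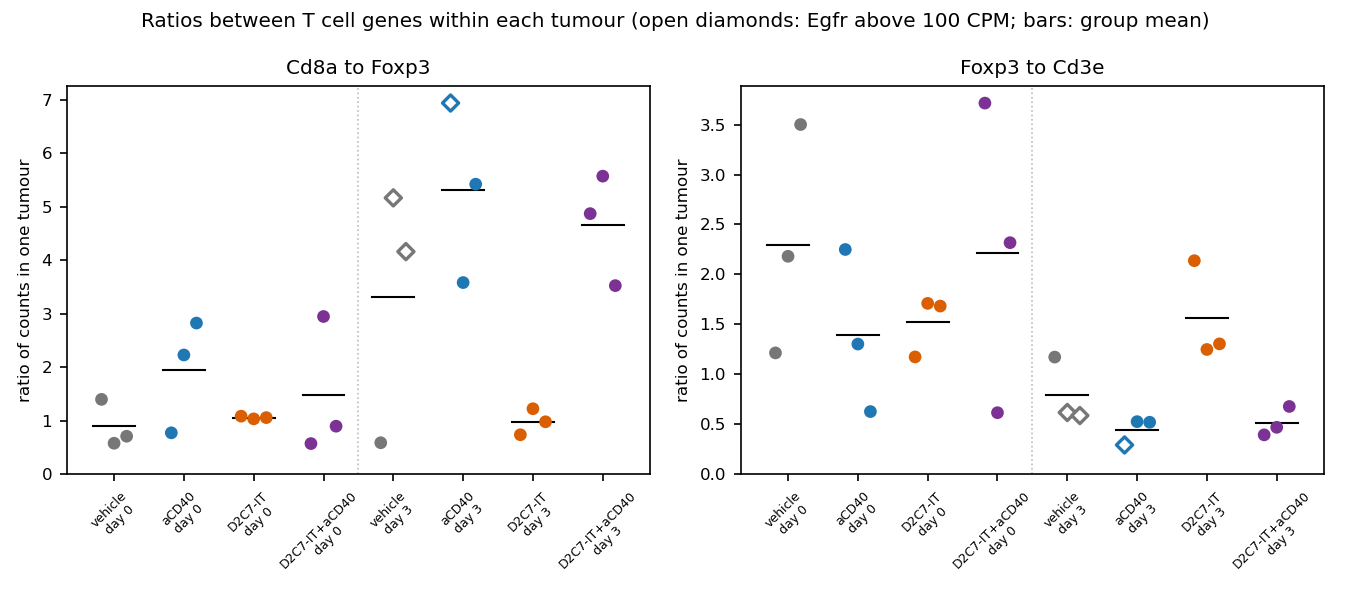
Ratio of counts of Cd8a to Foxp3 (left) and of Foxp3 to Cd3e (right) within each tumour, by group; bars are group means and open diamonds the high-Egfr tumours. At day 3 Cd8a to Foxp3 is 3.53 to 6.94 in the αCD40 and D2C7-IT + αCD40 tumours and 0.742 to 1.23 in the D2C7-IT tumours. It is 5.17 and 4.17 in the high-Egfr vehicle tumours of that day. Part of the Foxp3 count can come from genes that overlap its exons.

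How far the members moved together was measured by the correlation of each with the mean log2 CPM of Cd3e, Cd3d and Cd3g, leaving the gene itself out. Because the high-Egfr tumours stand apart, values are given over the other 21. These were scaled together, but they come from all 8 groups and differ in the tissue they hold. The mean of their striatal neuron genes, a list described below, ran from 4.3 to 8.25 log2 CPM. How far differences of group and tissue add to the correlations over the 21 was not tested. Spearman's rho was 0.7 or more for 25 of the 36 members. Cd8a had a Pearson r and a Spearman rho of 0.97 and 0.97, Cd5 0.95 and 0.97, Sh2d2a 0.94 and 0.96, Trac 0.93 and 0.95 and Cxcr6 0.93 and 0.94; the adjusted permutation p of each r was 1.7e-05 and of each rho 2e-05, from unadjusted values of 1e-05, the smallest that the resamples can give. By a two-sided permutation test with 100000 resamples, r passed an adjusted p of 0.05 for 30 of 36 members over these 21 tumours, all with a positive r, with adjustment over the 36 members. Over all 24, and also in deviations from the group means, 32 passed with a positive r and 2, Bcl11b and Tox, with a negative one. The deviations within a group are not independent of each other, so their permutation p is approximate, and they still hold the high-Egfr tumours. The shares of all genes that reach these thresholds of rho and p are not given. The counts thus do not show how far the members differ from other genes. Cd8a had r = 0.97 when the 2 tumours farthest from the median were also left out. Spearman's rho was under 0.5 in 6 members over the 21 tumours: Trbc2 (0.22), Cd4 (0.15), Cd6 (0.46), Tcf7 (0.25), Bcl11b (-0.02) and Tox (-0.41). Lef1, at 0.50, was the next.

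Of these 6, Cd4, Tcf7 and Bcl11b were correlated with striatal neuron genes. Over the 21 tumours Cd4 and the mean of 10 striatal neuron genes (among them Drd1, Drd2 and Ppp1r1b) had r = 0.95 (adjusted permutation p = 0.00036) and rho = 0.94 (adjusted permutation p = 0.00024), and r = 0.94 without the 2 tumours farthest from the median. Bcl11b had r = 0.83 (adjusted permutation p = 0.00036) and rho = 0.82 (adjusted permutation p = 0.00024), and Tcf7 r = 0.81 (adjusted permutation p = 0.00048) and rho = 0.86 (adjusted permutation p = 0.00024); without the 2 farthest tumours r was 0.88 and 0.82. In deviations from the group means over all 24, r was 0.74 for Cd4 and 0.91 for Bcl11b but -0.07 for Tcf7, which was highest in the 3 high-Egfr tumours. Trbc2 had r = 0.68 (adjusted permutation p = 0.00792) and rho = 0.70 (adjusted permutation p = 0.0119) with 8 cortical neuron genes (among them Slc17a7), and Cd6 r = 0.78 (adjusted permutation p = 0.00108) and rho = 0.59 (adjusted permutation p = 0.0605); without the 2 farthest tumours r was 0.62 and 0.61, and both then missed the threshold (adjusted permutation p = 0.0625). Trbc2 had the opposite sign with the striatal list, with r = -0.66 (adjusted permutation p = 0.0156) and rho = -0.63 (adjusted permutation p = 0.0365), and r = -0.61 (adjusted permutation p = 0.0625) without the 2 farthest. Cd4 had r = -0.38 (adjusted permutation p = 0.502) and rho = -0.57 (adjusted permutation p = 0.0773) with the cortical list over the 21 tumours, and r = -0.67 (adjusted permutation p = 0.0349) without the 2 farthest. Over all 24 tumours r with the cortical list missed the threshold for Trbc2 (0.50, adjusted permutation p = 0.129) and Cd6 (0.48, adjusted permutation p = 0.16). These relations were tested after the values were seen, with adjustment over the 72 relations of 36 members with both lists. Cd8a had -0.08 and -0.11 with the striatal list. The summed level of the striatal list ranged from 367 to 3478 CPM in vehicle tumours of day 0 and from 677 to 3427 in D2C7-IT tumours of day 3. The part of this variation in the Cd4, Tcf7 and Bcl11b comparisons above was not tested.

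**Figure D5:**
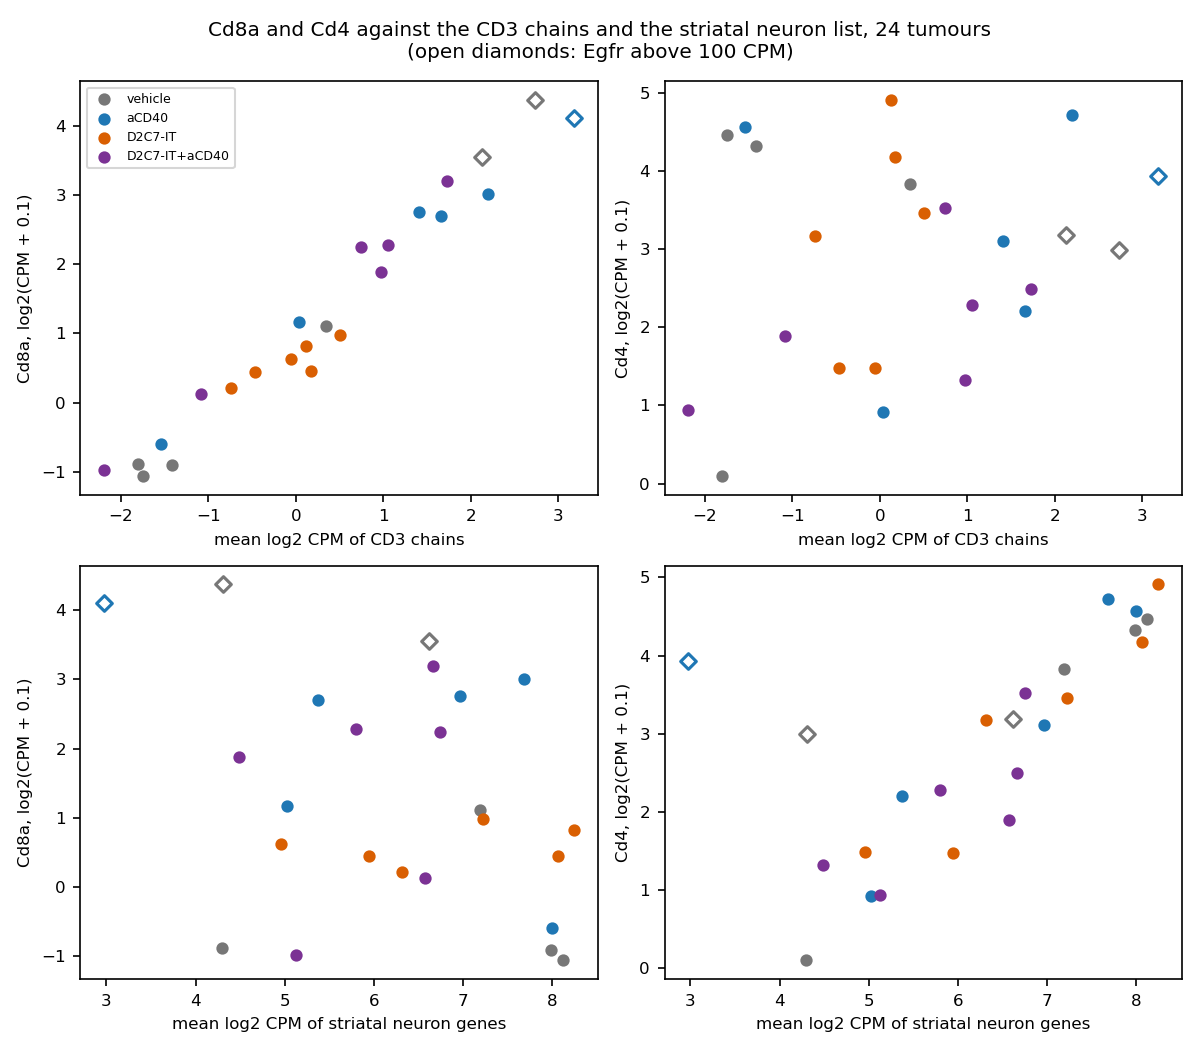
Cd8a (left) and Cd4 (right), log2(CPM + 0.1), against the mean log2 CPM of the CD3 chains (top) and of the striatal neuron list (bottom), 1 point a tumour, coloured by treatment; open diamonds are the high-Egfr tumours. Cd8a follows the CD3 chains and Cd4 the striatal list, with rho of 0.97 and 0.94 over the 21 other tumours.

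Among the genes outside the list, those with the highest rho with the CD3 mean over the 24 tumours included Ms4a4b (0.98), Spn (0.97), Klrc1 (0.97) and Il2rb (0.96). Spn encodes the sialoglycoprotein CD43, Klrc1 the NKG2A receptor of NK and CD8 T cells, and Il2rb the shared IL-2 and IL-15 receptor chain. Over the 21 tumours the rho of these 4 was 0.95 to 0.96.

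Other genes of the pathway were counted in 4 lists, in which edgeR called no gene in any of the 19 comparisons beside Lag3. Of 22 further genes of receptor signalling, all tested, the vehicle tumours of day 3 against day 0 had 11 higher and 0 lower at an unadjusted p under 0.05 (median 1.17; 30.2% of all genes) and αCD40 10 higher and 0 lower (median 1.08; 11.6% of all genes). Without the high-Egfr tumours these were 0 higher (median -0.34) and 2 higher (median 0.25), with 0 lower in both. The comparison of D2C7-IT + αCD40 with D2C7-IT at day 3 had 1 higher and 0 lower (median 0.37; 2.44% of all genes). In the last, Txk had 1.55 (SE 0.69, adjusted p = 1.0 by edgeR); Txk is a Tec family kinase of T cells. Of 14 helper cytokine and fate genes 10 were tested, and the combination against D2C7-IT at day 3 had 1 higher and 0 lower (median 0.04; 2.44% of all genes). There Ifng, the cytokine of type 1 helper, CD8 T and NK cells, lay at 0.0274, 0.0336 and 0.0403 CPM with D2C7-IT and 0.56, 1.26 and 0.463 with the combination, without overlap. The 3 D2C7-IT tumours held 4 Ifng counts in all and the combination tumours 92, a depth-scaled ratio of 22.1 with an exact 95% interval of 8.36 to 82.9 for counting error only. Its adjusted p was 1.0 by edgeR.

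Of 12 effector and exhaustion genes, all tested, the combination against D2C7-IT at day 3 had 3 higher and 0 lower at an unadjusted p under 0.05 (11 of 12 higher, median 1.32; 2.44% of all genes). Gzmk had 2.32 (SE 0.55, adjusted p = 1.0 by edgeR); Gzmk, a granzyme of CD8 T cells, lay at 0.219, 0.0672 and 0.423 CPM with D2C7-IT and 1.36, 1.5 and 0.85 with the combination. In the vehicle tumours of day 3 against day 0 the same list had 11 higher and 0 lower at an unadjusted p under 0.05 (30.2% of all genes; median 3.02), but 0 higher and 0 lower (median -0.995) without the high-Egfr tumours. Of the 5 naive and recirculation genes the combination against D2C7-IT at day 3 had 0 higher and 0 lower (median -0.09; 2.44% of all genes). The vehicle tumours of day 3 against day 0 had 3 higher and 0 lower (median 1.52; 30.2% of all genes), with a median of -0.20 without the high-Egfr tumours.

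Markers of other cells moved with several of these results. Of 10 NK cell genes (NK cells also express Tbx21, Eomes and Cd247), all 10 were higher in the vehicle tumours of day 3 against day 0 and in the combination against D2C7-IT at day 3 (log2 fold change medians 3.57 and 1.41). Without the high-Egfr tumours 2 of 10 were higher in the vehicle comparison (median -0.72). Their summed level was 3.37 to 6.73 CPM in D2C7-IT, 9.93 to 13.8 in combination, 11.3 to 98.1 in αCD40 and 2.52 to 70.9 in vehicle tumours of day 3. Their mean level was 2.37 log2 CPM in the high-Egfr αCD40 tumour and -0.66 and -0.70 in the other αCD40 tumours of day 3. In the vehicle tumours of day 3 it was 2.03 and 2.05 in those of high Egfr and -2.36 in the other. Of the 5 tested of 6 gamma delta T cell genes, 5 were higher in the combination against D2C7-IT (median 2.43), with a summed level of 10.4 to 14.9 CPM in the combination and 7.26 to 13.9 CPM in D2C7-IT, which overlapped. The mean level of the 6 was low, at -2.12 to -1.73 log2 CPM with D2C7-IT and -1.17 to -0.91 with the combination at day 3. At such levels the size of a fold change is uncertain. Of 7 B cell genes 6 were higher in the combination against D2C7-IT (median 1.13), and their sum in αCD40 tumours of day 3 was 23.6 to 313 CPM against 2.88 to 14.8 at day 0. Their mean level in the αCD40 tumours of day 3 was 5.31 log2 CPM in that of high Egfr and 3.67 and 1.58 in the others. All 7 had an unadjusted p under 0.05 by edgeR between day 0 and day 3, against 11.6% of all genes. At an adjusted p under 0.05 edgeR called 1 of them, against 0.0583% of all genes. It was Cd79a, a chain of the B cell receptor, at 0.854, 0.895 and 1.54 CPM at day 0 and 57.1, 20.02 and 4.56 CPM at day 3 (log2 fold change 4.63, adjusted p = 0.0404 by edgeR). That call was lost without the high-Egfr tumour, αCD40 day 3 replicate 1 (adjusted p = 0.149 by edgeR), and, with adjusted p from 0.11 to 0.407 by edgeR, without any other αCD40 tumour but replicate 3 of day 3; with only the groups compared it was 0.81. Of 8 monocyte and macrophage genes 7 were higher in the combination against D2C7-IT at day 3 (median 1.43; summed 21.2 to 28.1 and 35.3 to 68.8 CPM), while 1 of 6 microglia genes was (median -0.10). The 8 dendritic cell genes had a median of -0.46 but a summed level of 43.9 to 51.1 CPM with D2C7-IT and 60.2 to 73.97 with the combination, and the 9 brain endothelial genes a median of 0.33 and a summed level of 379 to 387 and 449 to 498 CPM, without overlap in either list. Lef1, which endothelial cells also express, was the member of smallest p there and in the combination against vehicle at day 0, where the endothelial sum was 455 to 521 CPM in the combination and 324 to 375 in vehicle. In the combination against D2C7-IT at day 3 the glioma and cell cycle list had a median of 0.10. No marker of these lists had 0 counts in all 24 tumours. Their part in the results on T cell genes was not tested.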

How the data were processed

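The files hold raw counts per gene for the 24 tumours, deposited by the authors in 6 tables of 36 columns, of which 12 repeat a library and 0 differ from its other copy. Per the submitters' processing notes, the tools were featureCounts (Subread 1.5.2), STAR 2.5.2b, Trimmomatic 0.36 and bcl2fastq 2.17, with the build GRCm38. Whether the counting used strand is not stated, and the kit does not mark strand. Names of 49056 of the 49315 genes came from GENCODE M21.

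Counts were fitted in R 4.3.3 with edgeR 4.0.16: TMM scaling, its filter on low counts by group (22280 genes), 1 mean per group over all 24 libraries, the robust quasi-likelihood test and Benjamini-Hochberg adjustment over the tested genes, with a threshold of 0.05. The 19 comparisons were fitted at once. Alternatives were DESeq2 1.42.0, other scaling and filters, fewer libraries, the replicate number as a block, and leaving out each library; leaving out the 3 high-Egfr libraries was added after seeing the data. The fit was tested on simulated data.

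The members and lists were chosen with earlier results of these data known. In each comparison up to 4 members of smallest p, at an unadjusted p under 0.05, were named with fold changes; 11 genes (Cd3e, Trac, Cd4, Cd8a, Foxp3, Icos, Tcf7, Tbx21, Cxcr6, Lck and Bcl11b) were given in every library, 1 or 2 genes of smallest p per other list, and the genes among the 5 of highest rho with the CD3 chains. Some items are not reported here. Members named beyond this rule were chosen after their values were seen. Correlations used log2 CPM with a prior count of 2, and the figures log2(CPM + 0.1). Nothing in the labels says that tumours sharing a replicate number belong together, and over 84 such pairs the correlation of their deviations ran from -0.91 to 0.51 (median -0.02).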

Additional observations from a re-analysis of the deposited data

How the results depend on the processing

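In all 19 comparisons edgeR called 0 of the 36 T cell genes, also with RLE scaling, without a filter on low counts, with at least 1 CPM in 3 libraries and with only the groups compared. With the replicate block the count was 0 in all 19 too, and the same numbers do not pair the tumours: 5 of the 24 libraries were closest to those of their own number. DESeq2 called 13 members in D2C7-IT against vehicle at day 3, 2 in D2C7-IT + αCD40 against vehicle at day 3 and 19 in vehicle at day 3 against day 0. Leaving out 1 library at a time, the counts ran from 0 to 25, from 0 to 6 and from 0 to 30 in these 3 comparisons and from 0 to 14 in the change of the D2C7-IT effect between the days; each highest count came from leaving out vehicle day 3 replicate 1, the vehicle tumour of low Egfr, and the cause was not tested.

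Without the 3 high-Egfr libraries, which leaves 1 vehicle tumour at day 3 that is taken to vary like the other groups, several log2 fold changes changed sign. In D2C7-IT against vehicle at day 3 Trbc1 was 0.82 and Gata3 0.17, and in D2C7-IT + αCD40 against vehicle at day 3 Il2ra was 2.39. In vehicle at day 3 against day 0 Cd28 was -0.18, Trbc1 -0.85 and Cd8a -1.19. In the change of the D2C7-IT effect between the days Trbc1 was 0.19 and Il2ra 0.73. The median over the members in D2C7-IT + αCD40 against D2C7-IT at day 0 was -1.09 without replicate 2 of the combination, and that at day 3 ran from 0.90 to 1.31 over all settings. The members correlated with the CD3 chains were 34 over 24 libraries (32 with a positive r and 2, Bcl11b and Tox, with a negative one), 31 without the 2 farthest (30 and 1, Tox) and 30 without the high-Egfr libraries (all positive). The share of all genes correlated with these chains is not given. The members of fewest counts were Themis, Ubash3a, Sh2d1a and Gata3, with 320 to 698 over all libraries.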
